A study of Aspergillus nidulans with 12 samples.

Results

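The regions described here were those with the highest signal in the IgG control libraries of a ChIP-seq study of VeA and LaeA in Aspergillus nidulans. Of 21897 merged regions for which the study's files list an IgG signal, 495 (2.26%) were taken. A region was taken when its IgG signal, in normalised tags (mapped reads per 10 M reads of the library, where M stands for 1000000), was at or above the 99th percentile of all merged regions in at least 1 of the 3 IgG libraries. Each library supplied 219 such regions. Because the IgG values made the choice, they are given below as a description and without a test. The chosen regions are called high-IgG regions throughout.

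A. nidulans is a filamentous fungus used as a model of development and secondary metabolism, and VeA and LaeA are nuclear regulators of both. All chromatin came from vegetatively growing cells kept for 24 h at 37 °C in the dark in liquid minimal medium with glucose. The 3 strains were the untagged wild type RDIT9.32 (WT), RJW324.3 carrying veA::FLAG::AfriboB (VeA::FLAG) and RJW302.11 carrying laeA::FLAG::AfriboB with veA (LaeA::FLAG). Both tagged strains thus carried the AfriboB marker beside a C-terminal FLAG tag, which WT did not, and each strain name stands for a single isolate. Each strain had 3 libraries precipitated with mouse monoclonal anti-FLAG antibody and 1 precipitated with anti-rabbit IgG as the negative control, so no IgG value has a replicate. The study's input DNA was not analysed here.

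Chromatin immunoprecipitation recovers DNA bound by a protein through an antibody against that protein. An antibody with no target in the cell, such as IgG in a fungus, recovers mainly the chromatin that sticks to antibody, beads and tube, and sequencing it shows the background at each position. Peaks of the specific antibody are usually called as an excess over such a background or over local signal. In animal genomes, positions with high control signal are often repeats or sequences present in many copies. Whether that holds for the fungal regions here was not tested, because no genome sequence of the assembly was used and no sequence is shown.

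The IgG libraries held 2.10 M tags for VeA::FLAG, 10.6 M for LaeA::FLAG and 2.66 M for WT, and the anti-FLAG libraries held 0.320 to 7.97 M. The median merged region had 40.6 IgG normalised tags in the VeA::FLAG, 92.4 in the LaeA::FLAG and 77.2 in the WT library. The 99th percentiles were 425, 380 and 508 normalised tags, which correspond to 89.0, 403 and 135 tags. With Poisson counting error alone, a VeA::FLAG region at the threshold has a 95% interval of 341 to 523 normalised tags, against 344 to 419 in LaeA::FLAG and 426 to 602 in WT. All intervals here cover counting error only, since copies made by PCR are not independent molecules.

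Regions at the threshold were separated from those outside it by less than this error. Just inside in VeA::FLAG were regions nearest AN0538, AN8602 and eaf1 (AN4472), each with 427 normalised tags, and just outside were regions near AN11878, AN6233 and AN3993 with 425 each. In LaeA::FLAG the regions near AN2226 and pfy1 (AN2484) had 381, as did that near AN2301, whereas those near AN8168 and AN12015 had 379.82 and that near AN0988 had 378. In WT the regions near AN1686, AN0870 and AN5490 had 510.1, whereas those near AN2730 and AN12270 had 508.23 and that near AN3762 had 506. Of the 495 high-IgG regions, 266 (53.7%) had a 95% interval wholly above a threshold.

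The IgG signal was spread very unevenly over the set. In 11 regions the highest of the 3 IgG values was 10000 normalised tags or more, in 50 it lay between 1000 and 10000, and in 434 it was under 1000. The 11 strongest regions held 85.7% of all VeA::FLAG IgG tags in the set, 47.5% of those of LaeA::FLAG and 63.8% of those of WT. All 11 passed the threshold in all 3 IgG libraries, against 22 of the 50 and 4 of the 434. The strongest regions were also narrow, with a median width of 340 bp and a range of 277 to 499 bp.

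The region with the highest signal in every IgG library lay on chromosome VI at 1436201 to 1436547, nearest AN3216. Its IgG signal was 805808 normalised tags for the VeA::FLAG, 101398 for the LaeA::FLAG and 259158 for the WT library. These were 8.06%, 1.01% and 2.59% of the tags of the libraries. The region was 347 bp wide, was annotated as promoter-TSS and lay 564 bp from the start of exon 7 of the gene, on its downstream side, since the study's annotation took the start of each exon as a feature start.

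The region with the next highest signal in every IgG library lay on chromosome III at 3239694 to 3240035, nearest AN8655, with 570427 normalised tags in VeA::FLAG IgG, 30741 in LaeA::FLAG and 112005 in WT. These 2 regions alone held 13.8% of the VeA::FLAG IgG tags, 1.32% of the LaeA::FLAG IgG tags and 3.71% of the WT IgG tags. In all, the high-IgG regions held 18.1% of the VeA::FLAG IgG tags (95% Wilson interval 18.03% to 18.13%), 3.40% of those of LaeA::FLAG (3.39% to 3.41%) and 6.49% of those of WT (6.46% to 6.52%). Without the 2 strongest regions the shares were 4.32%, 2.08% and 2.77%. All merged regions together held 32.9%, 25.9% and 27.2% of the tags of these libraries. Of the tags in merged regions, the high-IgG regions held 55.01%, 13.1% and 23.8%, or 22.6%, 8.46% and 11.8% without the 2 strongest, for a set that spanned 4.99% of the length of all merged regions.

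The region nearest AN5343 on chromosome V (3092981 to 3093317) had 53922 normalised tags in VeA::FLAG IgG, but 1368 in LaeA::FLAG and 3793 in WT. The region nearest AN0449 on chromosome VIII (3517860 to 3518199) had 26703, 2217 and 2144. In AN2596 (VII, 4473313 to 4473659) the values were 17034, 1461 and 2680.5 in the same order. VeA::FLAG IgG was thus the highest of the libraries in each of these regions, as it was in 10 of the 11 strongest.

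VeA::FLAG IgG was again the highest at AN7747 (IV, 2572077 to 2572417) with 11877 normalised tags in VeA::FLAG IgG, 3522 in LaeA::FLAG and 7783.5 in WT. A region near the serine tRNA gene tS(AGA)1 (IV, 2092278 to 2092579) had 13454, 1292 and 4367. Those near AN1912 (VII, 2231578 to 2231855) and AN5173 (V, 1392584 to 1392862) had 13263 and 11633.5 in VeA::FLAG IgG, 1230.4 and 1038 in LaeA::FLAG, and 3680.0 and 4599 in WT. Only 2 of the 207 nuclear regions nearest a tRNA gene were high-IgG regions, a rate of 0.966%, below the 2.26% of all merged regions.

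The exception among the strongest was the region nearest AN5245 on chromosome V (1616243 to 1616741), which was also the widest of them at 499 bp. It had 13161 normalised tags in VeA::FLAG IgG, 15895 in LaeA::FLAG and 12739.7 in WT. Of the 11 strongest regions this was the only one in which LaeA::FLAG IgG was highest, and no peak of any of the anti-FLAG lists lay in it. Another region high in LaeA::FLAG IgG lay nearest AN5895 on chromosome I (1872838 to 1873050), with 7056 normalised tags for the VeA::FLAG, 5193 for the LaeA::FLAG and 265 for the WT library. This region was not high in WT IgG but held peaks in all 3 WT anti-FLAG libraries, with 6970.2, 27540.2 and 61252.5 normalised tags.

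**Figure D1:**
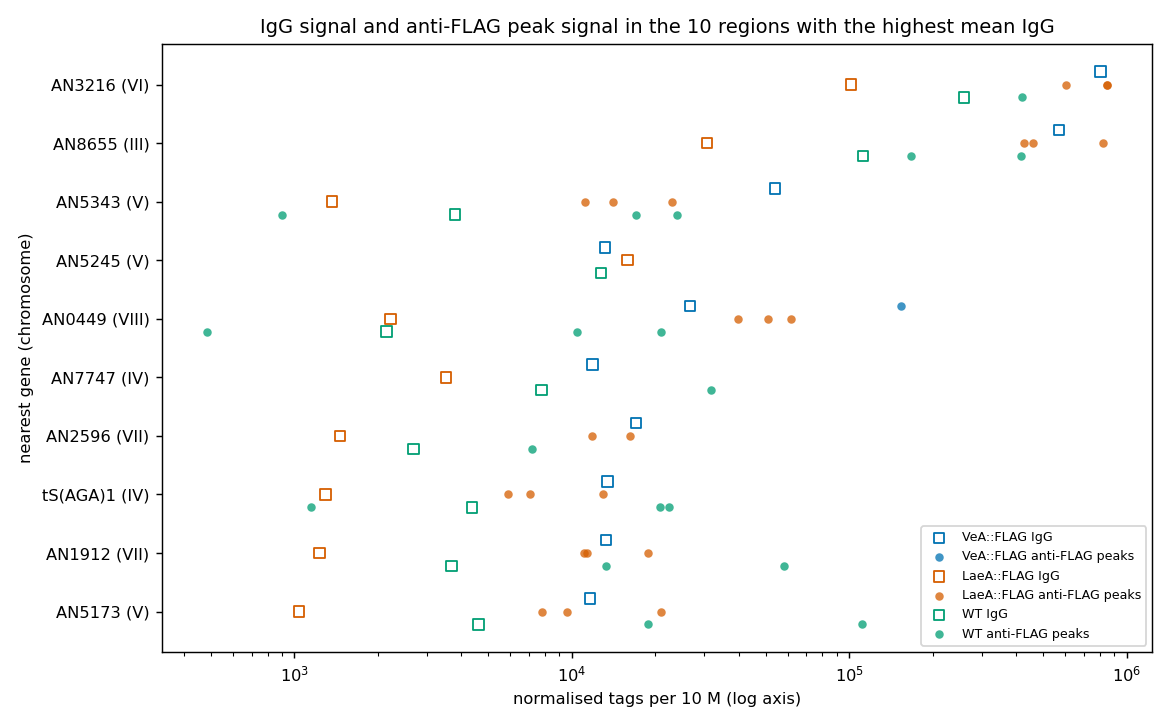
IgG signal (open squares) and anti-FLAG peak signal (filled circles, 1 per library with a peak in the region) in normalised tags on a log axis, for the 10 regions with the highest mean IgG, by nearest gene and coloured by strain. VeA::FLAG IgG was the highest IgG value in every region shown except that nearest AN5245, which held no anti-FLAG peak, and only the region nearest AN0449 held a VeA::FLAG peak.

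The 3 IgG libraries chose mostly different regions. Of the 495, 133 were high in VeA::FLAG IgG only, 128 in LaeA::FLAG only and 109 in WT only. Another 15 were high in VeA::FLAG and LaeA::FLAG, 34 in VeA::FLAG and WT, 39 in LaeA::FLAG and WT, and 37 (7.47%) in all 3. VeA::FLAG and LaeA::FLAG shared 52 of their 219 regions (23.7% of each list), VeA::FLAG and WT 71 (32.4%), and LaeA::FLAG and WT 76 (34.7%).

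A value near a threshold can fall on either side of it by counting error. Among the 133 regions high in VeA::FLAG IgG only, 35 (26.3%) had a 95% interval above the VeA::FLAG threshold and intervals below both other thresholds. The same held for 40 of the 128 regions (31.2%) of LaeA::FLAG and for 33 of the 109 (30.3%) of WT. For 32 of the 37 regions high in all 3, all the intervals lay above the thresholds.

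Within the 37 regions shared by all, the levels still differed between libraries. VeA::FLAG IgG exceeded LaeA::FLAG IgG in 31 of them, with a median ratio of 2.93 and a range of 0.456 to 39.4. It exceeded WT IgG in 28 of them, with a median ratio of 1.86 and a range of 0.283 to 20.8. WT IgG exceeded LaeA::FLAG IgG in 28, with a median ratio of 1.94. With 1 IgG library per strain, strain and library cannot be told apart in these ratios.

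Over all 21897 merged regions, Pearson's r between IgG libraries was 0.933 for VeA::FLAG and LaeA::FLAG, 0.975 for VeA::FLAG and WT, and 0.982 for LaeA::FLAG and WT. These values rested on AN3216 and AN8655, and were 0.389, 0.510 and 0.730 without them. Spearman's rho over all merged regions was 0.388, 0.273 and 0.510 in the same order. The 495 were chosen by these same values, and among them rho was -0.18, -0.01 and 0.319. The points share libraries, and wide regions collect more tags in each, so these coefficients are descriptions across regions and carry no test.

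**Figure D2:**
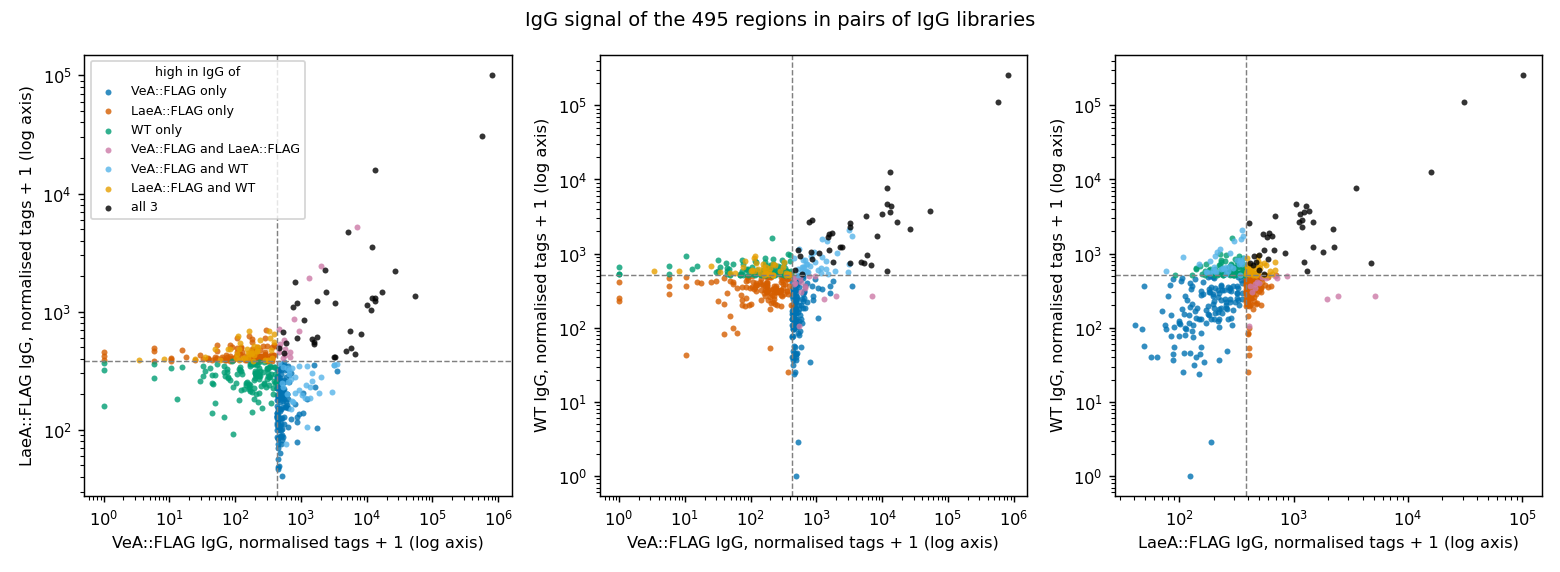
IgG normalised tags plus 1 (log axes) of the 495 regions in each pair of IgG libraries, coloured by the libraries in which a region was high, with dashed lines at the 99th percentiles. The 37 regions high in all 3 (black) run up to AN3216 and AN8655 at the top right, whereas most other regions lie close to a threshold of a single library.

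The regions chosen by the different libraries differed in width. The median width was 439 bp for regions high in VeA::FLAG IgG only, 847.5 bp for LaeA::FLAG only, 619 bp for WT only, 969 bp for LaeA::FLAG and WT, and 333 bp for all 3, against 265 bp for all merged regions. Of the 80 high-IgG regions under 300 bp, 72 were high in VeA::FLAG IgG, 23 in LaeA::FLAG and 33 in WT. Of the 277 regions of 600 bp and over, 49 were high in VeA::FLAG IgG, 175 in LaeA::FLAG and 119 in WT. A region of 600 bp or more was a high-IgG region in 23.4% of cases, but one under 300 bp in 0.495%.

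The signal is a sum over a region, so width enters the choice directly. When regions were ranked by IgG tags per kb, 507 regions passed and 151 of the 495 (30.5%) were among them. All 80 regions under 300 bp were kept, but only 6 of the 277 of 600 bp and over. By library, 34 of the 37 regions high in all 3 (91.9%) were kept, as were 58 of the 133 of VeA::FLAG only (43.6%) and 25 of the 109 of WT only (22.9%). For LaeA::FLAG only it was 2 of 128 (1.56%), and for LaeA::FLAG and WT 0 of 39. On this scale 55 regions were high in all 3 libraries.

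**Figure D3:**
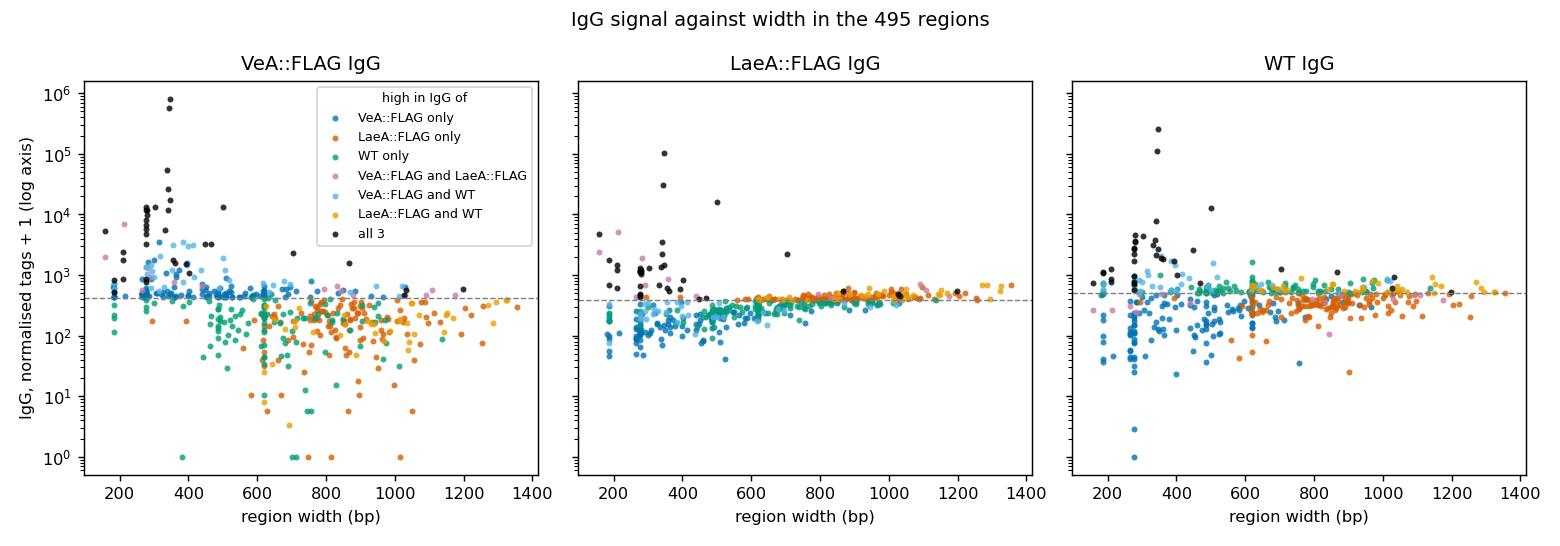
IgG normalised tags plus 1 (log axis) against region width in bp for the 495 regions in each IgG library, with colours as in the plot of library pairs and a dashed line at the 99th percentile. The strongest regions are under 600 bp wide, and in LaeA::FLAG IgG the regions that pass by a narrow margin are mostly 600 bp and over.

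High-IgG regions were more often annotated to gene starts and intergenic sequence than merged regions at large, but the difference at gene starts turned when regions were ranked per kb. Of the 495, 360 (72.7%) were promoter-TSS, 69 (13.9%) lay at a transcription termination site (TTS), 51 (10.3%) were intergenic and 15 (3.03%) lay in an exon. The same shares over all merged regions were 66.8%, 20.2%, 5.19% and 7.80%. Over the 507 regions ranked per kb they were 62.5%, 20.7%, 9.07% and 7.69%, so that the promoter-TSS share was below that of all merged regions and the intergenic share stayed above it. The nearest exon start was that of exon 1, the start of the gene, for 340 regions (68.7%) against 48.4% of all merged regions. In 247 (49.9%) the region lay upstream of such an exon 1 start by at most 1.5 kb, against 29.96%. These were counted in any annotation class.

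The regions high in all 3 libraries had lower shares at gene starts. Of the 37 high in all 3 libraries, 21 (56.8%) were promoter-TSS, 12 lay at a TTS and 4 were intergenic, and the nearest exon start was exon 1 in 14 (37.8%). Regions high in WT only had exon 1 nearest in 85.3%, those high in LaeA::FLAG only in 77.3% and those high in VeA::FLAG only in 55.6%. Among the 50 regions between 1000 and 10000 normalised tags, 19 lay at a TTS and 25 were promoter-TSS.

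High-IgG regions were found on every chromosome. They made up 1.67% of the merged regions on chromosome I, the lowest rate, and 2.57% on chromosome VII, the highest of the nuclear chromosomes. Within 100 kb of a chromosome end 20 of 1036 regions (1.93%) were high-IgG regions, against 457 of 20831 (2.19%) of the other nuclear regions. Chained over gaps of up to 1 kb, the 495 formed 472 loci, of which 453 held a single region. The largest nuclear cluster over gaps of 5 kb had 4 regions at the right end of the covered part of chromosome VI (3400530 to 3407002), all nearest AN10328, with 773 to 1766 normalised tags in VeA::FLAG IgG, 102 to 871 in LaeA::FLAG and 431 to 1005 in WT.

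The mitochondrial genome was the exception. Of its 30 merged regions, 18 (60%) were high-IgG regions, 17 in WT IgG, 9 in VeA::FLAG and 4 in LaeA::FLAG. Mitochondrial DNA is present in many copies per cell and is not packed by nuclear histones. The median mitochondrial region had 321 normalised tags in VeA::FLAG IgG, 169 in LaeA::FLAG and 566 in WT, all above the medians of all merged regions. The highest in WT IgG were near AN20049 (23821 to 24097), with 857, 1179.5 and 2814 normalised tags, and near AN20013 (21505 to 21781), with 766, 1104 and 2705. Mitochondrial tRNA genes were nearest to 5 of the 18.

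The mitochondrial regions of the set were called with anti-FLAG less often than merged regions at large. Of the 18, 7 held a peak in any of the 11 anti-FLAG lists (9 libraries and a combined list for each tagged strain), against 79.4% of all merged regions. In 6 of the 7 the peak was in the LaeA::FLAG combined list alone. Of all 30 mitochondrial merged regions, 8 held a peak in any list, so most of those with a peak were high-IgG regions. The mitochondrial regions together held 0.107% of the VeA::FLAG IgG tags, 0.0901% of those of LaeA::FLAG and 0.218% of those of WT, and so little of the IgG signal of the set.

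The regions were then compared with the anti-FLAG peaks, where a region held a peak when the peak's centre lay in it. The study's methods give a fold threshold for calling peaks but do not name the library it was taken against. Of the 31953 peaks of the 11 anti-FLAG lists, 8 had less signal than the IgG of the strain and 235 had less than 2 times as much. The IgG signal may thus have entered the calls, and the counts below are given as a description, not as independent of the choice. Of the 495, 400 (80.8%) held a peak of at least 1 of the 9 libraries, against 72.6% of all merged regions, but 62.7% of the 507 regions ranked per kb did, which is below that share. Counting the combined lists of the tagged strains as well, 414 (83.6%) held a peak, against 79.4%, and 81 (16.4%) held none, against 20.6% of all merged regions. Of these 81, 11 were mitochondrial and 45 were under 300 bp wide, and their median VeA::FLAG IgG signal was 482 normalised tags.

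VeA::FLAG peaks of at least 1 replicate were present in 288 (58.2%, against 54%). Those of replicates 1, 2 and 3 were present in 188, 213 and 202 high-IgG regions (38.0%, 43.0% and 40.8%), against 19.3%, 25.5% and 25.9% of all merged regions. The VeA::FLAG combined list had a peak in 247 (49.9%, against 25%). LaeA::FLAG peaks were present in 166, 190 and 82 (33.5%, 38.4% and 16.6%), against 11.2%, 10% and 2.54%, those of its combined list in 249 (50.3%, against 15.2%) and those of at least 1 replicate in 257 (51.9%, against 20.5%). WT peaks were present in 21, 93 and 94 (4.24%, 18.8% and 19.0%), against 0.607%, 8.32% and 0.918%, and in 130 (26.3%, against 9.34%) for at least 1 WT library. In all 9 libraries the share of high-IgG regions with a peak was above that of all merged regions. Ranked per kb, the regions held VeA::FLAG peaks less often than all merged regions, in 9.47%, 14.4% and 18.5% for replicates 1, 2 and 3. In the other 6 libraries the share ranked per kb was still above that of all merged regions, with 13.8%, 15.4% and 8.88% for LaeA::FLAG and 4.73%, 16.8% and 15.0% for WT.

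Regions of 600 bp and over held combined peaks of the tagged strains more often than those under 300 bp, whether or not high in IgG. Peaks of WT replicate 3 went the other way, in 33.8% of high-IgG regions under 300 bp and 5.78% of those of 600 bp and over. Of the high-IgG regions of 600 bp and over, 76.9% held a VeA::FLAG combined peak and 52.3% a LaeA::FLAG combined peak, against 70.1% and 43.5% of the other merged regions of that width. For WT replicate 3 the shares were 5.78% and 0.110%. Of the 80 high-IgG regions under 300 bp, 0 held a peak in any VeA::FLAG library or its combined list. Of the other regions of that width, 12.5%, 18.3% and 20.3% held a peak of VeA::FLAG replicates 1, 2 and 3. Of the 80, 72 were high in VeA::FLAG IgG, which may have entered those calls. The 0 may thus follow from the choice, which was not tested. In the same 80, 32.5% held a LaeA::FLAG combined peak and 33.8% a peak of WT replicate 3, against 8.01% and 0.342% of the others.

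The overlap also differed with the IgG library that was high. Over all merged regions, 25% held a VeA::FLAG combined peak, 15.2% a LaeA::FLAG combined peak and 0.918% a peak of WT replicate 3. The groups below were formed by the IgG values and differed in width. Median widths were 392 bp for those high in VeA::FLAG IgG and 398.5 bp for VeA::FLAG and WT. They were 847.5 bp for LaeA::FLAG only and 969 bp for LaeA::FLAG and WT. IgG library and width cannot be told apart in these shares. Of the 219 regions high in VeA::FLAG IgG, 27 (12.3%) held a VeA::FLAG combined peak, 101 (46.1%) a LaeA::FLAG combined peak and 85 (38.8%) a peak of WT replicate 3. Of the 128 high in LaeA::FLAG only, 108 (84.4%) held a VeA::FLAG combined peak and 63 (49.2%) a LaeA::FLAG combined peak. Of the 34 high in VeA::FLAG and WT, 31 (91.2%) held a LaeA::FLAG combined peak and 29 (85.3%) a peak of WT replicate 3, but 3 (8.82%) held a VeA::FLAG combined peak. Of the 39 high in LaeA::FLAG and WT, 38 (97.4%) held a VeA::FLAG combined peak and 1 (2.56%) a peak of WT replicate 3.

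**Figure D4:**
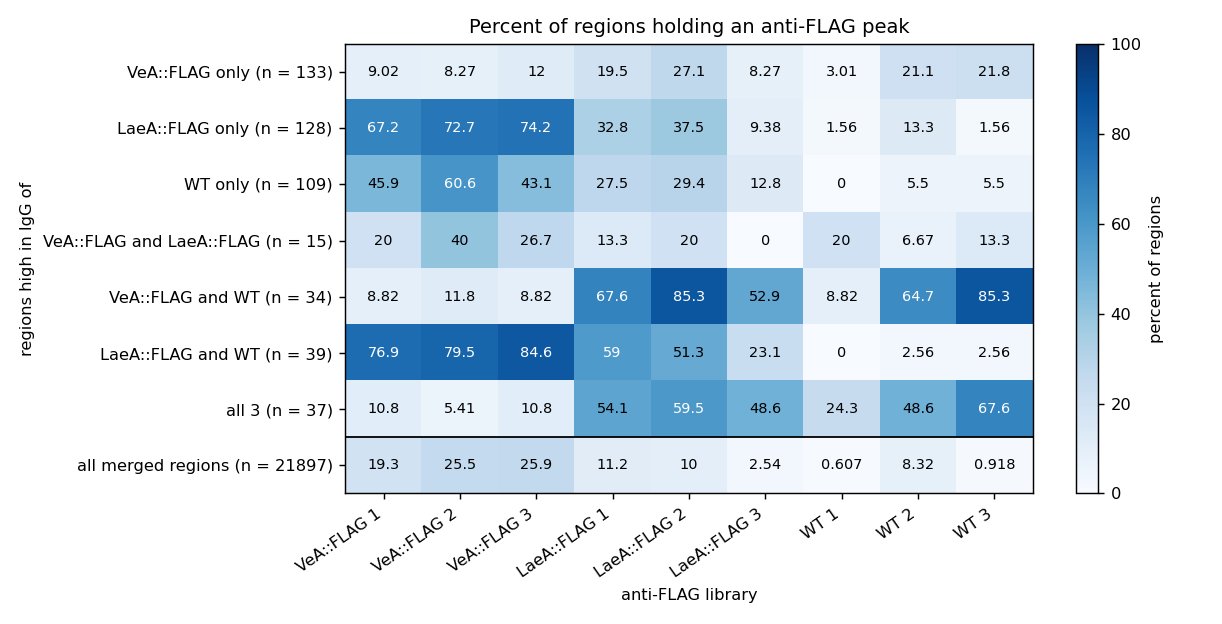
Percent of regions that held a peak of each anti-FLAG library, by the IgG libraries in which the regions were high, with all merged regions in the lowest row. Regions high in VeA::FLAG IgG together with WT or with both other libraries held the peaks of LaeA::FLAG 2 and 3 and of WT 2 and 3 most often (up to 85.3%), and regions high in LaeA::FLAG IgG without VeA::FLAG IgG held VeA::FLAG peaks most often (up to 84.6%).

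The strongest regions were called mainly in LaeA::FLAG and in the untagged WT. Among the 61 regions with an IgG value of 1000 normalised tags or more, 53 held a peak in at least 1 WT library. This was 86.9%, against 9.34% of all merged regions. For LaeA::FLAG it was 42 (68.9%, against 20.5%), of which 32 held a peak in all 3 libraries. For VeA::FLAG it was 3 (4.92%, against 54%). VeA::FLAG IgG was the highest IgG value in 10 of the 11 strongest regions and in 37 of the other 50. The low number of VeA::FLAG calls there may follow from the choice, which was not tested. Of the 11 merged regions with a peak in all 3 WT libraries (0.0502% of all), 10 were high-IgG regions. For LaeA::FLAG it was 54 of 154 (0.703% of all merged regions) and for VeA::FLAG 114 of 845 (3.86%).

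At AN3216 the LaeA::FLAG peaks had 849696, 852490 and 606361 normalised tags in replicates 1, 2 and 3, against 101321, 101296 and 101386 in LaeA::FLAG IgG at the same peaks. WT replicate 2 had a peak with 419449, and no peak was listed for the other WT libraries. At AN8655 the LaeA::FLAG peaks had 823660, 460001 and 427166, and WT replicates 2 and 3 had 167323 and 416257. Each listed peak of the untagged WT thus lay below all 3 LaeA::FLAG values of the region.

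The region nearest AN0449 was the only one of the 11 strongest with a VeA::FLAG peak. VeA::FLAG replicate 1 had 153997 normalised tags there, and no peak was listed for replicates 2 and 3. The LaeA::FLAG replicates had 61486.6, 50755.8 and 39653.5. The WT replicates had 485, 20969 and 10415, and the first of these was below the 1628 of WT IgG at the same peak. WT replicate 1 had 3 peaks with less anti-FLAG than IgG signal, all in high-IgG regions, with 904 against 2771 at AN5343 and 1151 against 3723 at tS(AGA)1 as the other two.

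Near AN1912 and AN5173 the signal in WT was above or within the range of LaeA::FLAG. At AN5173 the LaeA::FLAG replicates had 9597, 20894 and 7783 normalised tags, whereas WT replicates 2 and 3 had 18856 and 111543. At AN1912 the LaeA::FLAG values were 11016, 18756 and 11379, and those of WT replicates 2 and 3 were 13291 and 58046.8. In each region the highest value was that of WT replicate 3, the library with the fewest tags, in which 1 tag is worth 31.3 normalised tags.

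Across the high-IgG regions that held a peak, the IgG library that the anti-FLAG signal followed most closely differed between libraries. Spearman's rho with VeA::FLAG IgG was 0.845 over 93 regions for WT replicate 2 and 0.818 over 94 for replicate 3, against 0.721 and 0.675 with the IgG of WT itself. For WT replicate 1, with 21 regions, it was 0.608 with VeA::FLAG IgG, 0.873 with LaeA::FLAG IgG and 0.477 with WT IgG. For LaeA::FLAG replicate 3 it was 0.659 over 82 regions with VeA::FLAG IgG and 0.520 with LaeA::FLAG IgG. LaeA::FLAG replicates 1 and 2 followed WT IgG most, with 0.548 over 166 regions and 0.534 over 190, against 0.375 and 0.465 with VeA::FLAG IgG. For the VeA::FLAG libraries rho with VeA::FLAG IgG was between -0.10 and -0.01 over 188 to 213 regions, and that with LaeA::FLAG IgG was 0.314, 0.191 and 0.204. These are descriptions across regions with a called peak, and the call may have used the IgG of the strain.

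Not every strong anti-FLAG region had a high IgG signal. The region nearest AN2910 on chromosome VI (2427823 to 2428241) had peaks of 333384 normalised tags in VeA::FLAG replicate 1, 491 in VeA::FLAG replicate 3, 5013980 in WT replicate 2 and 503625 in WT replicate 3. Its IgG signal was 0 for the VeA::FLAG, 178 for the LaeA::FLAG and 132 for the WT library, all below the thresholds.

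The share of each anti-FLAG library lying in the high-IgG regions was compared between strains, library by library. The labels do not say whether replicates came from separate cultures. Since the IgG values that chose the regions may have entered the peak calls of each strain, a low share of VeA::FLAG peaks in regions chosen partly for high VeA::FLAG IgG may follow from the choice, and the differences are given without a test. Of the VeA::FLAG peaks, 4.87%, 4.44% and 4.29% lay in high-IgG regions in replicates 1, 2 and 3 (95% Wilson intervals within 3.80% and 5.56%). For LaeA::FLAG it was 6.96% (6.02% to 8.03%), 9.02% (7.90% to 10.3%) and 14.9% (12.2% to 18.1%). For WT it was 15.7% (10.5% to 22.8%), 5.41% (4.46% to 6.54%) and 46.8% (40.0% to 53.7%). Every VeA::FLAG value was below every value of the other strains, whereas LaeA::FLAG and WT overlapped. The VeA::FLAG lists were also the longest, with 4252, 5672 and 5783 entries in replicates 1, 2 and 3. Those of LaeA::FLAG held 2471, 2217 and 557, and those of WT 134, 1831 and 201. Whether the shares followed strain or list length was not tested. When VeA::FLAG IgG took no part in the choice, the VeA::FLAG shares were 4.59%, 4.25% and 4.01%, still below all LaeA::FLAG shares (5.91%, 7.40% and 12.9%) but above the 3.82% of WT replicate 2.

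VeA::FLAG had a mean share of peaks of 4.53% ± 0.300 (SD, n = 3), LaeA::FLAG of 10.3% ± 4.12 and WT of 22.6% ± 21.5. VeA::FLAG was below WT by 18.1 percentage points and below LaeA::FLAG by 5.76, and LaeA::FLAG was below WT by 12.3 points, a difference smaller than the SD of the WT libraries, as was that of VeA::FLAG from WT. Without VeA::FLAG IgG in the choice the VeA::FLAG differences were -12.0 and -4.46 points. The differences from WT leaned on WT replicate 3. Without it they were -6.01 points for VeA::FLAG and -0.245 for LaeA::FLAG. Without WT replicate 2 the LaeA::FLAG difference was -20.9, and without LaeA::FLAG replicate 3 that of VeA::FLAG from LaeA::FLAG was -3.46.

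By tags rather than peaks the order differed. The peaks in high-IgG regions held 2.57%, 1.26% and 1.05% of all tags in the VeA::FLAG libraries, 19.2%, 16.8% and 12.2% in LaeA::FLAG, and 0.257%, 8.55% and 16.2% in WT. The means were 1.63% ± 0.820 (SD, n = 3), 16.05% ± 3.59 and 8.33% ± 7.96. VeA::FLAG was below LaeA::FLAG by 14.4 points, and the groups did not overlap. The differences of VeA::FLAG and LaeA::FLAG from WT were -6.70 and 7.72 points, both smaller than the SD of the WT libraries. These shares also depend on how many tags lay in any peak, from 0.449% in WT replicate 1 to 63.7% in WT replicate 2. Of the tags in peaks, those in high-IgG regions made up 13.0%, 7.01% and 6.24% in VeA::FLAG. In LaeA::FLAG it was 69.7%, 65.0% and 83.4%, and in WT 57.2%, 13.4% and 71.1%, so LaeA::FLAG and WT overlapped. The 13.4% of WT replicate 2 leaned on the region nearest AN2910, which was not a high-IgG region. Its peak had 5013980 normalised tags in that library, most of the library's tags in peaks. All other normalised values of WT replicate 2 are scaled to a total that includes this peak. The overlap did not rest on it, since 71.1% in WT lay above 65.0% and 69.7% in LaeA::FLAG.

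Most of these LaeA::FLAG tags lay at AN3216 and AN8655. When peaks with more than 1% of the tags of a library were left out, the shares in LaeA::FLAG were 2.49%, 3.64% and 1.82%, and those in WT 0.257%, 2.68% and 9.68%. LaeA::FLAG was then 1.56 points below WT instead of above it, and VeA::FLAG 1.54 points below LaeA::FLAG. Without WT replicate 1 the LaeA::FLAG difference from WT was 3.69 and that of VeA::FLAG was -10.7. Without WT replicate 3 these were 11.6 and -2.78.

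**Figure D5:**
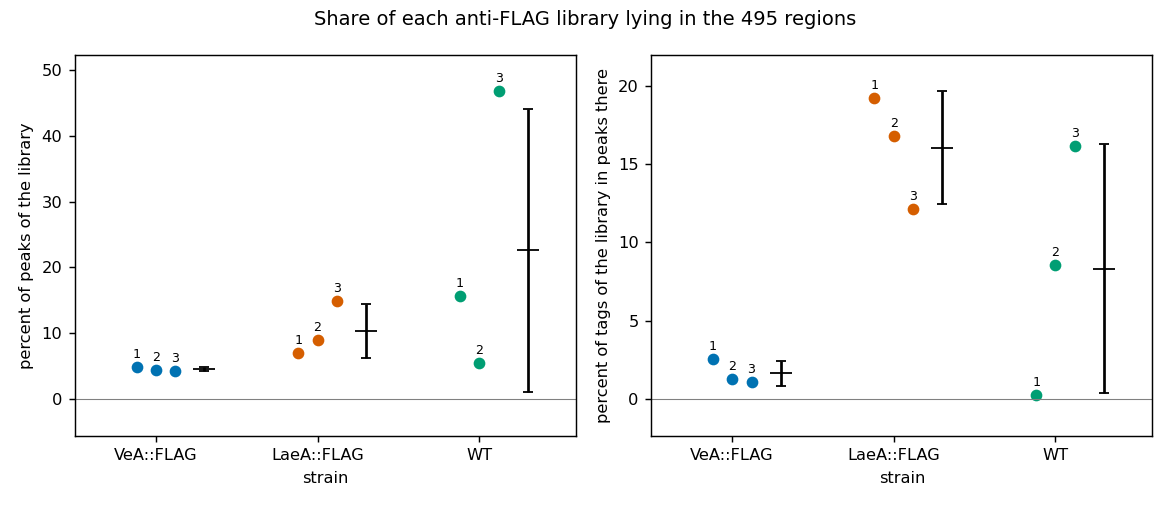
Percent of the peaks of each anti-FLAG library (left) and percent of its tags in peaks (right) lying in the 495 regions, by strain, with replicate numbers above the points and the mean ± SD (n = 3) beside them. VeA::FLAG values lie between 4.29% and 4.87% of peaks, all below LaeA::FLAG and WT, whose lists were shorter. WT values spread from 5.41% to 46.8%.

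The nearest genes were varied, and those given here by an AN number alone have no name in the table used. Of the 473 nearest genes, 424 were matched to a table of gene names, and regions nearest a gene with a name in it were high-IgG regions about as often (43 of 1878, 2.29%) as all merged regions. The tagged genes veA and laeA and the marker riboB were nearest to 6 merged regions, of which 0 were high-IgG regions. The same was 0 of 4 for the histone gene that could be matched, 0 of 13 for ribosomal protein genes and 0 of 20 for heat shock protein genes. These lists are too short to tell 0 from the 2.26% of all merged regions, and nothing is read from them. Of the 2 glycolysis genes matched, gpdA had a high-IgG region, which was 1 of the 6 merged regions nearest these genes (16.7%).

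That region lay in the promoter of gpdA (AN8041), the gene of glyceraldehyde-3-phosphate dehydrogenase, on chromosome II at 579359 to 580300. Its IgG signal was 165 normalised tags for the VeA::FLAG, 358 for the LaeA::FLAG and 864 for the WT library, so it was high in WT only. The peaks there had 404, 462 and 443 normalised tags in the VeA::FLAG replicates and 598, 479 and 652 in those of LaeA::FLAG, and no WT peak was listed.

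The region with peaks in the most libraries, 8 of 9, lay in the promoter of AN0870 on chromosome VIII (2216436 to 2217305). Its IgG signal was 527 normalised tags in the VeA::FLAG, 340.2 in the LaeA::FLAG and 510.1 in the WT library. Its peaks had 594, 285 and 185 in the VeA::FLAG replicates, 461, 603 and 361 in those of LaeA::FLAG, and 417 and 1986 in WT replicates 2 and 3. Only WT replicate 1 had no peak there.

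Beside AN0449, the regions with peaks in 7 libraries were near AN5690, glnA, bgt2 and AN11288. The gene glnA (AN4159) encodes glutamine synthetase, which joins ammonium to glutamate. Its region (II, 1916368 to 1917565) was among the few wide ones high in all 3 IgG libraries, with 598.98 normalised tags for the VeA::FLAG, 544 for the LaeA::FLAG and 535 for the WT library. The anti-FLAG peaks there were close to one another, with 851, 861 and 804 in VeA::FLAG, 746, 721 and 975.3 in LaeA::FLAG, and 1298 in WT replicate 3.

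The region of bgt2 (AN7950; II, 307641 to 308924), named for a beta-1,3-glucan transferase of the cell wall, had 162 normalised tags in VeA::FLAG IgG, 686 in LaeA::FLAG and 606 in WT. Its VeA::FLAG peaks had 965, 1043 and 797, those of LaeA::FLAG 1041, 1417 and 1001, and WT replicate 2 had 255. AN5690 (V, 1973760 to 1974780) had 659, 317 and 811 in the IgG of VeA::FLAG, LaeA::FLAG and WT, and AN11288 (VIII, 1716696 to 1717917) had 217, 503 and 331. These regions were 1021 to 1284 bp wide, against a median of 619 bp in the set.

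The following named genes were picked after their values had been seen. Regulators of development, in lists also made after the values were seen, had 6 high-IgG regions near 5 genes, of 47 merged regions nearest to them (12.8%, against 2.26% of all merged regions), from which nothing is read. For nsdD (AN3152), a GATA factor needed for sexual development, the region lay at a TTS (VI, 1644802 to 1646123) with 382 normalised tags in VeA::FLAG IgG, 554 in LaeA::FLAG and 520 in WT. Its VeA::FLAG peaks had 1521, 1447 and 2466, LaeA::FLAG replicates 2 and 3 had 788 and 1245, and no WT peak was listed. For velB (AN0363), the velvet partner of VeA, the region (VIII, 3785382 to 3786109) was annotated as promoter-TSS and lay 99 bp from an exon start, on its downstream side. It had 231, 398 and 339 in IgG and, of the 9 libraries, a peak in VeA::FLAG replicate 2 only, with 605.

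The promoter region of wetA (AN1937; VII, 2314108 to 2315216), which acts in the maturation of conidia, had 558, 572 and 463 IgG normalised tags in VeA::FLAG, LaeA::FLAG and WT and no anti-FLAG peak in any list. The region upstream of flbA (AN5893; I, 1882409 to 1882957), a regulator of G protein signalling, had 227, 204 and 612 and was called in the combined lists only. Both regions near flbD (AN0279), a Myb-type activator of conidiation, were intergenic. The upstream region had 637 in VeA::FLAG IgG, 153 in LaeA::FLAG and 311 in WT, with WT peaks of 615 and 4629 in replicates 2 and 3. The other had 369.9, 429.8 and 284, with a LaeA::FLAG replicate 2 peak of 685.

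Genes of iron, stress and calcium control were also among the nearest genes. High-IgG regions were 2 of 27 merged regions (7.41%) in the list of iron, nitrogen, carbon and amino acid regulators. They were 3 of 23 (13.0%) in that of stress regulators and 2 of 9 (22.2%) in that of calcium and metal pumps, against 2.26% of all merged regions. These lists too were made after the values were seen, and nothing is read from the shares. At sreA (AN0176), a GATA repressor of iron uptake, the promoter region (VIII, 4366730 to 4367999) had 325, 683 and 766 normalised tags in the IgG of VeA::FLAG, LaeA::FLAG and WT. Its VeA::FLAG peaks had 652, 710.4 and 999, and LaeA::FLAG replicates 2 and 3 had 551 and 659. At yap1 (AN7513), named for a bZIP factor of the oxidative stress response, the values were 14.3, 474 and 418 in IgG and 892, 338 and 378 in the VeA::FLAG peaks. In all, 5 of the 9 libraries had a peak at yap1. The promoter regions of pmcA (AN1189) and pmcB (AN4920), named for vacuolar calcium pumps, had 124 and 47.7 in VeA::FLAG IgG, 296 and 411 in LaeA::FLAG, and 598.6 and 422 in WT.

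A named gene near a strong region was racA (AN4743), which encodes a Rac GTPase of polarised growth. The region (III, 1121624 to 1121900) was 277 bp wide, lay at a TTS and had 8252 normalised tags in VeA::FLAG IgG, 650.3 in LaeA::FLAG and 1732 in WT. The LaeA::FLAG peaks there had 5534, 8201 and 5083, and WT replicates 2 and 3 had 6659 and 38250. No VeA::FLAG peak was listed, as in 58 of the 61 regions with an IgG value of 1000 or more.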

How the data were processed

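Members and gene lists were chosen with earlier results of these data known. Chromatin of 3 strains was precipitated with anti-FLAG (3 libraries each) or IgG (1 each). Per the study's methods, reads were mapped with bowtie2 and peaks called and annotated with HOMER (version 4.11) at high sensitivity, with a minimum fold change. The control library for the calls is not given in the sources used here, and the file headers list each peak's signal beside the IgG of the strain. The authors deposited a signal for each region or peak, its tags scaled to 10 M per library. They come in fractions of a tag, so no count model was fitted. A peak score, also deposited, entered no result. Coordinates are those of the FGSC A4 assembly, as given.

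The merged regions did not overlap each other (0 cases), and 0 of 31953 peaks had a centre outside them, but 4505 held no peak of the 11 lists, so the merged list also rests on lists not used here. Percentiles were taken over all 21897 regions. Shares of peaks and tags were to be compared with exact two-sided permutation tests over the 20 splits of 6 libraries. Their p-values are not given, since the IgG values that chose the regions may have entered the calls, and 3 libraries against 3 cannot give p below 0.1. Peak assignment and tests were checked on simulated data. Python 3.11.15, numpy 2.4.6, pandas 2.3.3 and scipy 1.17.1 were used. A RefSeq table (ASM1142v1) supplied gene names and nothing else. The genes named are those of the 10 highest mean IgG values, the 3 highest per library, those at the thresholds, the 5 with peaks in the most libraries and those of fixed lists. Regions near AN2910, AN5895, AN10328, AN11288, AN20013 and AN20049 and the genes said to be so were picked after their values were seen. Alternatives were other percentiles, tags per kb, all 3 or only WT IgG, any overlap, a minimum of 4 times IgG, peaks over 1% of tags left out, chaining over 5 kb, a replicate block and each library left out. Leaving out mitochondrial regions or an IgG library was added after the data were seen.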

Additional observations from a re-analysis of the deposited data

How the results depend on the processing

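The choice of regions moved with its threshold. Taking the top 2% or the top 0.5% of each library, or requiring all 3 IgG libraries, gave 1004, 225 and 37 high-IgG regions, in 948, 217 and 37 loci, and with the top 2% 64 regions were high in all 3. The share of regions with a peak in any library, 80.8%, was 85.8% with the top 0.5%, 62.7% for tags per kb (below the 72.6% of all merged regions) and 86.5% with all 3 libraries required. In settings chosen after the data were seen it was 90.1% without the VeA::FLAG and 75.7% without the LaeA::FLAG IgG library. The promoter-TSS share, 72.7%, was 67.6% with the top 0.5%, 62.5% for tags per kb and 56.8% with all 3 required, the last 2 of these below the 66.8% of all merged regions. Leaving out peaks over 1% of tags turned LaeA::FLAG minus WT in tags to -1.56 points. No other alternative turned a difference between strains. With each library left out in turn, the differences in peaks ranged from -26.7 to -6.01 (VeA::FLAG minus WT), -20.9 to -0.245 (LaeA::FLAG minus WT) and -7.43 to -3.46 (VeA::FLAG minus LaeA::FLAG), and those in tags from -10.7 to -2.78, 3.69 to 11.6 and -16.4 to -12.8. Same-numbered libraries did not deviate together in whether a region was called (correlations of -0.06 to 0.0297, with 0 of 9 pairs above 0.1). Since 53.8% of merged regions were called in 1 library and 27.4% in 0, this measure cannot exclude that the numbers pair them. A replicate block cannot change a difference in means (-18.1 points in peaks for VeA::FLAG minus WT either way), so it was no check of the differences. Of the regions high in VeA::FLAG, LaeA::FLAG and WT IgG, 58.0%, 60.7% and 53.9% had a 95% counting interval above the threshold, so membership of the others is within counting error.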

Other observations

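Several other high-IgG regions lay near genes not described above, all picked after their values were seen. The promoter region of sidD (AN6236; I, 803497 to 803970), named for an enzyme of siderophore synthesis known from Aspergillus fumigatus, had 539 normalised tags in VeA::FLAG IgG, 215 in LaeA::FLAG and 122 in WT, and no anti-FLAG peak. The region near chs3 (AN1554; VII, 1147455 to 1147941), named for a chitin synthase, had 47.7, 166 and 518 and no anti-FLAG peak. The promoter region of btgE (AN1551; VII, 1141518 to 1142532), named for a glucanase of the cell wall, had 0 tags in VeA::FLAG IgG, 451 in LaeA::FLAG and 232 in WT, with VeA::FLAG peaks of 565, 724 and 209. In all, 4 of the 9 libraries had a peak at btgE. The promoter region of cpcA (AN3675; II, 3407484 to 3408216), which controls amino acid synthesis, had 71.6, 386 and 235, with VeA::FLAG peaks of 474, 842.5 and 433.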
